A study of Mus musculus with 12 samples.

Results

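Zinc, iron and copper enter, leave and are stored in cells through small families of dedicated proteins, and 35 such genes are described here, of 55491 genes in the deposited tables. They were taken by name: every gene whose symbol is Slc30a or Slc39a followed by a number (the ZnT and ZIP zinc transporters, 10 and 14 genes), the metallothioneins Mt1 and Mt2, the copper transport genes Slc31a1, Slc31a2, Atp7a and Atp7b, and the iron genes Slc11a2, Slc40a1, Fth1, Ftl1 and Tfrc. The samples were polyA RNA of PT-22, a mouse kidney line labelled as proximal tubule. All 4 groups carried the same genotype, Pax2-/-, Pax8fl/fl and Rosa-CreERT2: the cells lack PAX2, both Pax8 alleles are floxed, and a tamoxifen-activated Cre is driven by the ubiquitous Rosa locus. The control group was taken at baseline, and the other groups at 2, 6 and 12 days following exposure to 4-hydroxytamoxifen (1 µM, for 2 days) to deplete PAX8, with 3 libraries (A, B and C) in each group. There was 1 cell line, and no vehicle-treated or late untreated group was among the samples, so loss of PAX8, exposure to the drug, Cre activity and time in confluent culture cannot be told apart in any comparison with control. The labels do not say that the letters are separate cultures, so what the p-values rest on, the spread among libraries of a group, may be technical.

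Zinc transporters work in opposite directions: ZIP proteins move zinc into the cytosol from outside or from organelles, and ZnT proteins move it out of the cytosol. Metallothioneins bind zinc and copper in the cytosol, and their genes are switched on by the zinc-sensing factor MTF1. Iron arrives by transferrin receptor endocytosis or through the divalent metal transporters, is stored in a ferritin shell of heavy and light chains, and leaves through the iron exporter ferroportin. Copper enters through CTR1 and is pumped into the secretory pathway by the P-type ATPases ATP7A and ATP7B. The proximal tubule takes back filtered metals, much of them bound to protein.

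Library totals ran from 4326667 to 11654959 expected counts, and levels are given as CPM, counts scaled to a common library total with TMM factors. Pax8 messenger RNA was 221, 228 and 226 CPM in control A, B and C, 378, 460.4 and 367 at day 2, 249.5, 249 and 268 at day 6 and 252, 232 and 241 at day 12. The targeted transcript was not lower in any treated group, and at day 2 it was 0.83 ± 0.07 (log2, SE) above control (edgeR adjusted p = 5.59e-12); the tables give 1 value per gene, so the floxed exons were not seen separately, and these values do not check the depletion of the protein. Of 17 proximal tubule marker genes, the defining transporters Slc34a1, Slc5a2 and Slc5a12 had no count in any library, and the summed level of the list was 754 to 791 CPM in control, 765 to 827 at day 2, 1182 to 1430.1 at day 6 and 686 to 890 at day 12, led by Lrp2 in control and by Aqp1 later. Of the 10 markers tested in that list, 7 were lower than control and 1 was higher at each of the 3 times. Of all tested genes, 10.9%, 27.6% and 26.6% were lower at days 2, 6 and 12, and 10.3%, 26.7% and 26.1% were higher. The 8 fibroblast and smooth muscle markers summed to 41.6 to 46.9 CPM in control and to 335 to 387 at day 12, led by Acta2 there. The 7 macrophage and leukocyte markers summed to 16.3 to 27.0 CPM over all libraries, with Ptprc at 0 in every treated library. Of the 3 tested in that list, 1 was lower than control at day 2 and 1 was higher at day 6. At day 12, 2 were higher and 1 was lower, and Cd68 led the list. The haemoglobin genes Hba-a1 and Hbb-bs were at 0 throughout. The 6 podocyte markers summed to 186 to 257 CPM and the 7 endothelial markers to 26.6 to 48.0, without a count of Cdh5 or Kdr; those of the collecting duct (8 genes) and of the loop of Henle and distal tubule (6 genes) were at or below 8.36 and 0.337 CPM. The part of these marker levels in the results that follow was not tested. In bulk RNA, fewer cells of a type and less RNA per cell cannot be told apart.

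Per transcript length, in TPM (transcript abundance corrected for length by the authors), the 2 ferritin chains stood above all the other members. In control the light chain gene Ftl1 was at 3387 ± 173 TPM (SD, n = 3) and the heavy chain gene Fth1 at 1715 ± 82.3, followed by Mt1 at 482 ± 53.9. The next were Slc39a7 (ZIP7, which releases zinc from the endoplasmic reticulum) at 191 ± 2.25, Mt2 at 139.9 ± 20.1, Tfrc at 97.6 ± 12.96 and Slc39a1 (a plasma membrane ZIP) at 88.3 ± 5.39. Slc39a14, Slc30a9 and Slc11a2 followed at 53.4, 51.5 and 42.7 TPM. The control libraries of Tfrc and Slc39a1 overlapped, and below Slc39a14 most neighbours did. From Slc39a14 down to Slc31a2 the exceptions were the steps between Slc30a5 and Slc30a6, between Slc39a9 and Slc39a6 and between Slc39a11 and Slc39a3. The 14 members from Slc31a1 (40.1 TPM) to Slc31a2 (11.1 TPM) spanned less than 4-fold. Slc30a1 stood lower at 5.71 TPM, and Slc39a8 and Atp7b were near 1 TPM at 1.03 and 0.9. The remaining 8 members were under the count filter used for testing: Slc30a2, Slc30a3, Slc30a8, Slc30a10, Slc39a2, Slc39a4, Slc39a5 and Slc39a12. Slc30a8 (the zinc transporter of insulin granules) and Slc39a12 had no count in any of the 12 libraries, and the other 6 had at most 14 counts in any library. Slc39a4 and Slc39a5, the ZIPs known from intestinal zinc uptake, reached 7 and 4 counts, and Slc30a10, a manganese exporter, had 7 counts over the 3 control libraries and 17, 25 and 31 over those of days 2, 6 and 12. No fold change is given for these 8.

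**Figure D1:**
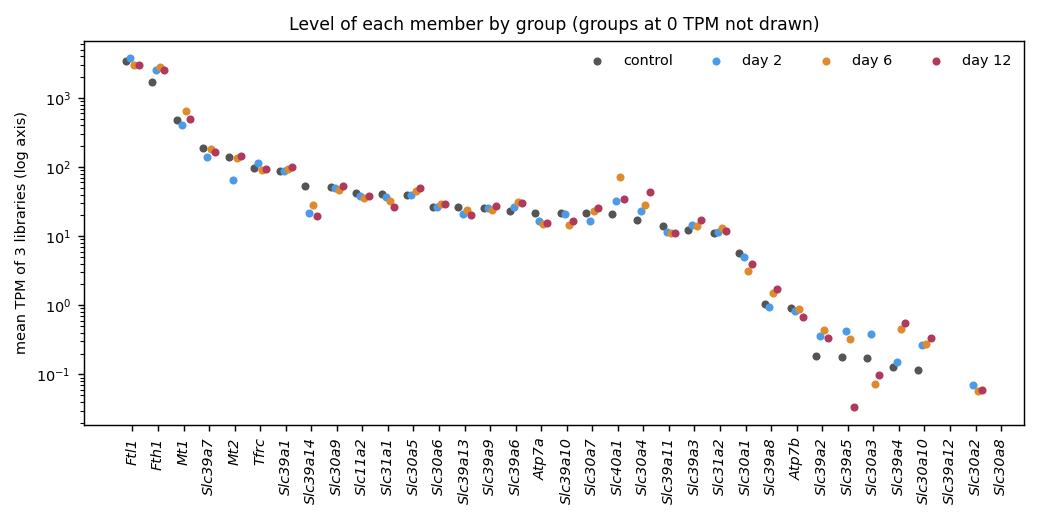
Mean TPM of 3 libraries (log axis) for the 35 members, ordered by the control level, with 1 point per group above 0 TPM. Groups at 0 TPM are not drawn, so Slc30a8 and Slc39a12 have no point and Slc30a2 has none in control. The ferritin chains lie above all other members in every group, and the points drawn for members below the filter lie under 1 TPM at the right. Slc40a1, Slc30a4 and Slc39a14 have the widest gaps between groups among the tested members above 10 TPM in control.

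Against control, 27 members were tested together with all 13513 genes that passed the filter. At day 2, 10 of the 27 (37.0%) passed an adjusted p of 0.05 in edgeR's quasi-likelihood test, 5 higher and 5 lower, where 21.2% of all tested genes did (10.3% higher, 10.9% lower). At day 6 it was 15 (55.6%), 4 higher and 11 lower, beside 54.3% of all genes (26.7% higher, 27.6% lower). At day 12 it was 18 (66.7%), 6 higher and 12 lower, beside 52.8% (26.1% higher, 26.6% lower). The members' share was thus near the background at day 6, and its distance from the background at the other days was not tested. Across the 4 groups 18 members passed, beside 65.1% of all genes. The median log2 fold change of the tested members was -0.07, -0.15 and -0.15 at days 2, 6 and 12, with the median of all genes within 0.01 of 0. From day 2 to day 6, 12 members passed (44.4%; 44.9% of all genes, with 22.6% higher and 22.3% lower), 4 higher and 8 lower. From day 6 to day 12 it was 5 (18.5%; 22% of all genes, with 11% higher and 11% lower), 2 higher and 3 lower. The split depended on the unit: with limma on log2(TPM + 1) there were 10 calls at day 6, 5 higher and 5 lower, 10 at day 12, 6 higher and 4 lower, and 8 between days 2 and 6, 5 higher and 3 lower. DESeq2 gave 7 higher and 9 lower at day 12. These runs did not test the same 27 members: limma on log2(TPM + 1) tested 29. DESeq2 gave none of the 27 a call that edgeR had not given, so its higher calls include a member under the count filter. Most of the called members changed by less than 2-fold: those past 2-fold were Slc39a14 and Mt2 at day 2, Slc39a14 and Slc40a1 at day 6 and Slc39a14 and Slc30a4 at day 12, all against control, and Slc40a1 from day 6 to day 12.

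**Figure D2:**
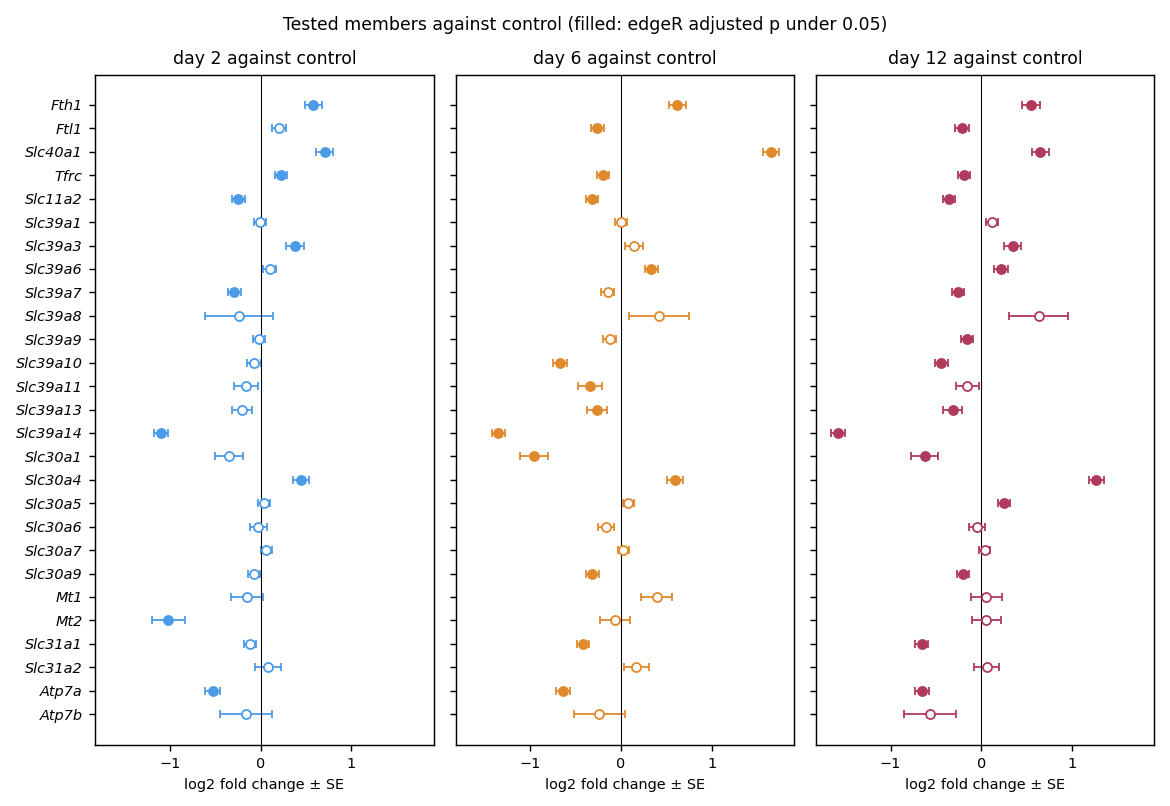
Log2 fold change against control with its standard error (x axis) for the 27 tested members (rows, iron genes first, then ZIP, ZnT, metallothionein and copper genes), at day 2, day 6 and day 12; filled points passed an adjusted p of 0.05 in edgeR. Slc39a14 lies at the far left of all 3 panels, Slc40a1 is the rightmost at day 6 and Slc30a4 at day 12.

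Of the 5 iron members, 4 were called against control at day 2 and 5 at days 6 and 12. The shares of all genes called were 21.2%, 54.3% and 52.8% at days 2, 6 and 12. All of them also passed the test across the 4 groups, as did 65.1% of all genes. The calls of Tfrc and Slc11a2 against control did not pass on the TPM scale. Several of them carry an iron-responsive element, a short hairpin bound by the iron regulatory proteins when iron is scarce: in the 5′ UTR it blocks translation, and in the 3′ UTR of Tfrc it protects the messenger RNA. GENCODE M21 transcripts (GRCm38) were searched for a bulged C, a paired upper stem of 5 bases and a loop of CAGTGH. H stands for A, C or T, and at least 4 of 5 bases in the lower stem had to pair. Matches were found in the UTRs of 13 of 21901 protein-coding genes (0.0594%), among them 4 of the 35 members. The elements are shown because the genes that share them did not share a direction of change; each is given as its 30 bases with the bulged C and the 6-base loop in capitals. The coordinates are of the plus strand for Fth1 and Tfrc and of the minus strand for Ftl1 and Slc40a1, and the sequence is read along the transcript.
Fth1, 5′ UTR, chr19:9982732-9982761: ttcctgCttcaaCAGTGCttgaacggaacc
Ftl1, 5′ UTR, chr7:45459778-45459807: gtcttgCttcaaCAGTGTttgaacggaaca
Slc40a1, 5′ UTR, chr1:45925464-45925493: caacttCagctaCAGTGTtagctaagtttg
Tfrc, 3′ UTR, chr16:32631219-32631248: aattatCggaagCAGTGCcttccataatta
Tfrc, 3′ UTR, chr16:32631598-32631627: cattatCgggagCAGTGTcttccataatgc
Tfrc, 3′ UTR, chr16:32631663-32631692: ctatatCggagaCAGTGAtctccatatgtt
Tfrc, 3′ UTR, chr16:32631710-32631739: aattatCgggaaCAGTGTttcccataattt
The ferritin hairpins have the same bulge and the same upper stem, and the 4 Tfrc hairpins lie close together. Messenger RNA levels do not measure the translational effect of a 5′ element, and no match in another member says only that these letters are not in the UTRs searched.

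Slc40a1, which encodes ferroportin (chr1:45908068-45926523, GRCm38, minus strand), had the largest increase of any tested member at day 6 and a smaller one at day 12. Its level was 46.8, 35.4 and 45.8 CPM in the control libraries, 68.7, 68.3 and 72.5 at day 2, 125, 146 and 134 at day 6 and 74.1, 67.004 and 61.4 at day 12. All libraries of each treated group were above all control libraries, and the day 6 libraries were above all others. The log2 fold change against control was 0.71 ± 0.09 (SE) at day 2, 1.65 ± 0.09 at day 6 and 0.65 ± 0.09 at day 12 in edgeR (adjusted p = 3.92e-07, 1.66e-16 and 3.39e-07). It rose by a further 0.94 ± 0.08 from day 2 to day 6 (edgeR adjusted p = 8.31e-11), then fell to day 12 (-1.001 ± 0.08, edgeR adjusted p = 9.695e-11). These 5 calls held in every alternative run. The day 12 level remained 1.57-fold above control.

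The ferritin chains diverged. Fth1, the ferroxidase subunit that oxidises iron for storage, was at 701, 830.5 and 742 CPM in control, 1329, 1106 and 969 at day 2, 1120.1, 1204 and 1175 at day 6 and 1165, 1111 and 1052 at day 12. No treated library overlapped the control range, and day 2 was the most spread group. Fth1 rose by 0.58 ± 0.10, 0.62 ± 0.10 and 0.55 ± 0.10 on the log2 scale (edgeR adjusted p = 5.56e-04, 9.81e-05 and 2.96e-04), and held these calls in every alternative. Ftl1, the light chain that helps form the mineral core, was at 1472, 1742 and 1545 CPM in control, 1762, 2106 and 1622 at day 2, 1297, 1353 and 1327 at day 6 and 1381, 1411 and 1319.5 at day 12. Day 2 overlapped control and was the highest group, while days 6 and 12 lay below it. The day 2 difference of 0.20 ± 0.08 missed the threshold (edgeR adjusted p = 0.05997), but passed it without control B (0.28, adjusted p = 0.00976) or day 2 C (0.29, adjusted p = 0.00191). It also passed without a filter (adjusted p = 0.00411), with at least 20 counts required (0.0494) and with upper-quartile scaling (0.0427). Ftl1 fell by 0.26 ± 0.07 at day 6 (edgeR adjusted p = 0.00633) and by 0.21 ± 0.08 at day 12 (edgeR adjusted p = 0.0234), and from day 2 to day 6 the change was -0.46 ± 0.08 (edgeR adjusted p = 3.84e-05). The day 12 call was lost without control B (-0.14, adjusted p = 0.126), day 12 A (-0.22, 0.0549) or day 12 C (-0.18, 0.0849). On the TPM scale the decreases of Ftl1 were 0.18 in size at both days, and neither passed (limma adjusted p = 0.0572 and 0.0669).

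The balance of the chains moved with them. The ratio of Fth1 to Ftl1, both in TPM, was 0.507, 0.504 and 0.508 in control, 0.797, 0.632 and 0.633 at day 2, 0.913, 0.941 and 0.937 at day 6 and 0.894, 0.833 and 0.847 at day 12. Every treated library exceeded every control library, and the highest ratios were at day 6; the ratio itself was not tested. The 2 chains together made up 5102 ± 255 TPM in control (SD, n = 3), 6340.1 ± 565 at day 2, 5752 ± 149.9 at day 6 and 5556 ± 167 at day 12. Copies of these genes took few counts: the pseudogene Ftl1-ps1 had 1549 over all libraries beside 153604 for Ftl1, and the ferritin heavy pseudogene Fth-ps2 had 6 beside 106136 for Fth1.

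The iron uptake genes Tfrc and Slc11a2 changed by less than 0.45 on the log2 scale in every comparison. Slc39a14, which also carries iron and changed by more, is described with the ZIP genes. Tfrc, the transferrin receptor, was at 333, 269 and 279.6 CPM in control, 336, 342 and 352 at day 2, 253, 277 and 239 at day 6 and 274, 244 and 255 at day 12. The day 2 libraries lay above control, whereas days 6 and 12 overlapped control and lay below day 2. The fold changes against control were 0.22 ± 0.07, -0.20 ± 0.07 and -0.19 ± 0.07 (edgeR adjusted p = 0.0169, 0.0162 and 0.0203), a rise followed by decreases, each near the threshold. Single libraries decided them: the day 2 call was lost without control B, control C, day 2 B or day 2 C (log2 fold change 0.17 to 0.23, adjusted p = 0.0512 to 0.12), the day 6 call without control A, day 6 A or day 6 C (-0.19 to -0.10, adjusted p = 0.0571 to 0.219), and the day 12 call without control A, day 12 B or day 12 C (-0.18 to -0.09, adjusted p = 0.0643 to 0.251). The direct step from day 2 to day 6, -0.42 ± 0.07 (edgeR adjusted p = 1.02e-05), passed in every alternative. On the TPM scale none of the 3 calls against control passed (0.25, -0.08 and -0.06, limma adjusted p = 0.136, 0.551 and 0.657). Slc11a2 (DMT1), which moves ferrous iron across apical and endosomal membranes, was at 94.5, 86.2 and 88.3 CPM in control, 79.98, 77.4 and 71.05 at day 2, 73.1, 71.2 and 71.6 at day 6 and 73.98, 67.8 and 69.02 at day 12. All treated libraries were below all control libraries, with log2 fold changes of -0.24 ± 0.07, -0.32 ± 0.07 and -0.35 ± 0.07 (edgeR adjusted p = 0.00825, 1.51e-04 and 3.71e-05). The day 2 call was lost without control A (-0.20, adjusted p = 0.055) or day 2 C (-0.18, adjusted p = 0.0835), and none of the 3 passed on the TPM scale (limma adjusted p = 0.468, 0.134 and 0.329).

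**Figure D3:**
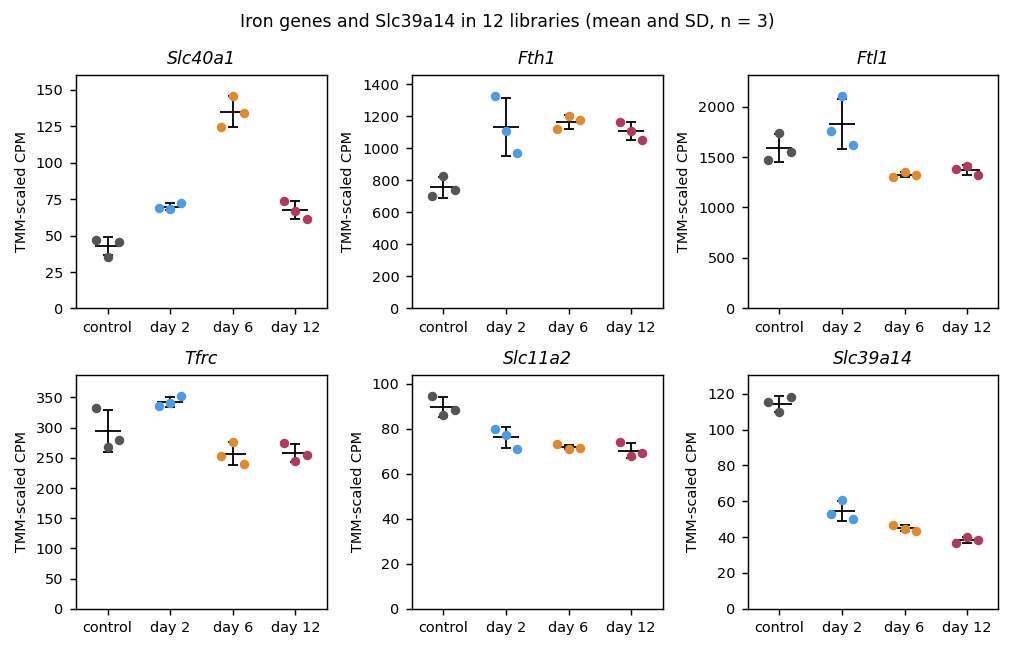
TMM-scaled CPM (y axes from 0) of 5 iron genes and Slc39a14 in the 12 libraries by group; points are libraries A, B and C, and bars are the mean and SD. Slc40a1 peaks at day 6, Fth1 is above control at all times while Ftl1 is below it at days 6 and 12, Tfrc is highest at day 2, and Slc39a14 is lower in every treated library.

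Among the zinc importers of the ZIP family, Slc39a14 (chr14:70303469-70351425, minus strand) had the largest decrease of any tested member at all 3 times against control. It encodes ZIP14, a plasma membrane carrier of zinc, manganese and non-transferrin-bound iron. It was at 116, 109.6 and 118 CPM in control, 52.6, 60.8 and 49.96 at day 2, 46.7, 44.3 and 43.5 at day 6 and 36.5, 40.3 and 38.2 at day 12. No treated library overlapped control, and the means were lower at each later time. The log2 fold changes were -1.09 ± 0.07, -1.35 ± 0.07 and -1.58 ± 0.07, the last being 2.98-fold lower than control (edgeR adjusted p = 4.73e-14, 2.53e-17 and 4.27e-19), and passed in every alternative. The steps between treated days did not hold equally: in counts day 6 was lower than day 2 (-0.25 ± 0.08, edgeR adjusted p = 0.009404), but without day 2 B the adjusted p was 0.065 (-0.18), and in TPM day 6 was higher (32.1, 28.5 and 25.2 TPM beside 18.96, 25.1 and 20.9 at day 2; log2 fold change 0.39, limma adjusted p = 0.0454). The counts divided by TPM, relative to other genes of the library, averaged 1.42 at day 2 and 0.971 at day 6 for this gene, so the transcript length assigned to it differed between the groups. The step to day 12 (-0.23, edgeR adjusted p = 0.0402) was lost without day 6 A, day 6 B, day 6 C, day 12 A or day 12 C (-0.25 to -0.20, adjusted p = 0.0598 to 0.161).

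Slc39a10 (ZIP10), a plasma membrane zinc importer that is abundant in kidney, fell between days 2 and 6. Its libraries were at 72.5, 72.9 and 80.5 CPM in control, 74.4, 74.1 and 67.7 at day 2, 43.9, 46.3 and 52.1 at day 6 and 56.01, 57.1 and 53.7 at day 12. Day 2 overlapped control, and days 6 and 12 lay below both. The decreases at days 6 and 12 were -0.67 ± 0.08 and -0.44 ± 0.07 (edgeR adjusted p = 2.901e-09 and 6.34e-06), and that from day 2 to day 6 was -0.60 ± 0.08 (edgeR adjusted p = 9.43e-08); all held in every alternative. A partial return by day 12 (0.23 ± 0.08, edgeR adjusted p = 0.0284) was lost without day 6 A, day 6 B, day 12 A or day 12 B (0.18 to 0.22, adjusted p = 0.0823 to 0.176). Slc39a6 (ZIP6), the closest relative of ZIP10 and its partner in a heteromer, moved the other way. It was at 58.4, 54.7 and 56.03 CPM in control, 56.9, 63.8 and 61.3 at day 2, 66.5, 76.7 and 70.02 at day 6 and 65.6, 64.98 and 65.9 at day 12. Day 2 overlapped control (0.10 ± 0.08, no call), and days 6 and 12 lay above it, rising by 0.33 ± 0.07 and 0.22 ± 0.07 (edgeR adjusted p = 2.03e-04 and 0.0127). Both increases held in every alternative.

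The other ZIP changes that passed against control were under 0.4 on the log2 scale. Slc39a3 (ZIP3) rose at day 2 (0.38 ± 0.10, edgeR adjusted p = 0.00346) and day 12 (0.35 ± 0.09, edgeR adjusted p = 0.00228), from 26.2 ± 1.84 CPM in control (SD, n = 3) to 34.03 ± 0.494 and 33.3 ± 1.14. Slc39a7, the most abundant ZIP, fell at day 2 (-0.29 ± 0.07, edgeR adjusted p = 0.00324) and day 12 (-0.26 ± 0.07, edgeR adjusted p = 0.00297), from 194 ± 15.7 CPM to 158 ± 16.9 and 162 ± 10.8. On the TPM scale the day 2 call of Slc39a3 and the day 12 call of Slc39a7 did not pass (limma adjusted p = 0.378 and 0.0721). Slc39a13 (ZIP13, of the secretory pathway) fell at days 6 and 12 by 0.27 and 0.32. The day 6 call was lost without control A, control C, day 6 A or day 6 C (-0.28 to -0.23, adjusted p = 0.0517 to 0.131), and the day 12 call without control C or day 12 C (-0.28 and -0.27, adjusted p = 0.0655 and 0.0649). Slc39a11 fell by 0.34 at day 6, a call lost without control B, day 6 A or day 6 C (-0.36 to -0.24, adjusted p = 0.05 to 0.15). The decrease of Slc39a9 at day 12 (-0.16 ± 0.07, edgeR adjusted p = 0.0487) was lost in 17 of 22 alternatives and turned to 0.067 in TPM. Slc39a1, at 125 ± 6.82 CPM in control, had no call (log2 fold changes -0.01, 0.00 and 0.12). Slc39a8 (ZIP8), the nearest relative of Slc39a14, had 7 to 36 counts per library and no call; the day 12 estimate was 0.63 ± 0.32 (edgeR adjusted p = 0.101).

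Of the 6 tested ZnT exporters, Slc30a4 and Slc30a1 changed most and in opposite directions. Slc30a4 (chr2:122681233-122702663, minus strand) encodes ZnT4, which loads zinc into endosomes and secretory vesicles. It was at 67.5, 49.4 and 61.99 CPM in control, 76.2, 84.9 and 83.6 at day 2, 95.6, 95.5 and 79.1 at day 6 and 141, 146 and 146 at day 12. The treated libraries were above control at each time and highest at day 12. The increases were 0.44 ± 0.09, 0.59 ± 0.09 and 1.27 ± 0.08 (edgeR adjusted p = 4.74e-04, 1.95e-06 and 6.72e-13), the last being 2.41-fold above control. A step of 0.67 ± 0.08 from day 6 to day 12 also passed (edgeR adjusted p = 5.31e-07), and only the day 2 call was lost in an alternative, that of limma on log2(TPM + 1) without a filter (adjusted p = 0.0826).

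Slc30a1 (ZnT1), the zinc exporter of the plasma membrane and a textbook MTF1 target, was at 17.3, 20.2 and 20.4 CPM in control, 17.5, 16.4 and 12.6 at day 2, 9.64, 11.4 and 8.67 at day 6 and 12.5, 15.4 and 9.76 at day 12. Day 2 overlapped control, and days 6 and 12 lay below it. The differences were -0.35 ± 0.15 at day 2, with no call (edgeR adjusted p = 0.105), -0.95 ± 0.15 at day 6 and -0.62 ± 0.15 at day 12 (edgeR adjusted p = 3.57e-06 and 6.73e-04). The step from day 2 to day 6 also passed (-0.61 ± 0.16, edgeR adjusted p = 0.00266). On the TPM scale that step and the day 12 decrease did not pass (limma adjusted p = 0.0589 and 0.096). Slc30a5 (ZnT5, of the early secretory pathway) rose at day 12 (0.25 ± 0.06, edgeR adjusted p = 0.00112). Slc30a6, its partner in a heterodimer, had no call, with log2 fold changes of -0.02, -0.16 and -0.05. Slc30a9, a mitochondrial zinc exporter, fell at days 6 and 12 (-0.31 ± 0.07 and -0.20 ± 0.07, edgeR adjusted p = 1.54e-04 and 0.00969); the day 12 call was lost without day 12 C (-0.17, adjusted p = 0.066), and its sign was reversed in TPM (0.0515), where the day 6 decrease was 0.15 in size (limma adjusted p = 0.507). Slc30a7 (ZnT7, of the Golgi) had no call and log2 fold changes of 0.07, 0.03 and 0.04; its counts per TPM differed by 1.91 times between libraries, so its TPM is not compared between groups.

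The metallothioneins and Slc30a1 are the classical zinc-induced genes, so the 150 bases before their annotated RefSeq starts are shown (GRCm38.p6, plus strand). The start in use in these cells was not measured. The stretch therefore need not hold the working promoter or all of its metal response elements, and cores more than 50 bases after the annotated start were not counted. Capitals mark the core of the metal response element bound by MTF1, TGCACNC or TGCGCNC on either strand, and in Slc30a1 also GTCACGC, a core of paired-box factor sites.
Mt1, chr8:94178939-94179088: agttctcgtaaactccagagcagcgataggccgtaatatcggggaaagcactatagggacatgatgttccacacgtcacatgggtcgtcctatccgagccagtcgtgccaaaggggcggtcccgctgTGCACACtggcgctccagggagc
Mt2, chr8:94172468-94172617: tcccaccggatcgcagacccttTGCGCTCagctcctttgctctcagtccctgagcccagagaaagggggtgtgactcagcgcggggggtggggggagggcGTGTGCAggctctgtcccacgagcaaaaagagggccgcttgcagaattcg
Slc30a1, chr1:191906631-191906780: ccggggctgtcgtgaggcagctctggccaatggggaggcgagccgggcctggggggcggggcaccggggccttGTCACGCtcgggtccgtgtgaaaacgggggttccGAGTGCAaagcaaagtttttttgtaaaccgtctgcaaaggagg
In the full windows of 250 bases before to 50 after the start, Mt1 had 3 metal response cores, Mt2 had 4 and Slc30a1 had 2. Some lie outside the printed 150 bases, among them the Mt1 cores at bases 3 and 21 after the start. Such numbers were not particular to these genes: Slc30a4 and Slc30a10 had 3 each. Atp7a and Slc30a2 had 2 each, as had a window of Tfrc. One or more were found in 18 of 36 windows of 29 members (50%) and in 25.7% of 32851 windows of all genes, and 3 or more in 1.97% of the latter. GTCACGC was found in 1 of the 36 member windows, that of Slc30a1, and in 2.09% of all windows. The antioxidant response core TGACNNNGC was found in 8 of the 36 (22.2%) and in 12.4% of all. A match is a description of the letters, and binding was not measured.

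Mt2 fell at day 2 and rose from day 2 to day 6, and Mt1 was not called at any time against control. Mt2 was at 17.5, 26.2 and 23.4 CPM in control, 11.02, 13.8 and 9.56 at day 2, 20.1, 25.5 and 18.004 at day 6 and 20.2, 27.9 and 21.4 at day 12. The day 2 libraries lay below all others. The change was -1.02 ± 0.18 at day 2 (edgeR adjusted p = 3.19e-04) and 0.95 ± 0.18 from day 2 to day 6 (edgeR adjusted p = 2.93e-04), and both held in every alternative. At days 6 and 12 the differences from control were -0.07 ± 0.16 and 0.06 ± 0.16, with no call. Mt1 was at 76.7, 105 and 86.7 CPM in control, 81.2, 102 and 64.7 at day 2, 103, 128 and 121 at day 6 and 95.2, 97.3 and 86.1 at day 12. Its groups overlapped control at every time, with differences of -0.15 ± 0.18, 0.39 ± 0.17 and 0.06 ± 0.17 (edgeR adjusted p = 0.627, 0.0774 and 0.807). The day 6 difference passed in 9 alternatives, among them those without control B (0.52, adjusted p = 0.0278), day 2 B (0.40, 0.0305) or day 2 C (0.40, 0.022) and limma on log2(TPM + 1) (0.41, adjusted p = 0.0192). From day 2 to day 6 Mt1 rose by 0.55 ± 0.17 (edgeR adjusted p = 0.0293), a call lost without day 2 A, day 2 C, day 6 B or day 6 C (0.38 to 0.56, adjusted p = 0.0717 to 0.086). The 2 genes lie side by side on chromosome 8. The ratio of Mt1 to Mt2, both in TPM, was 3.73, 3.47 and 3.19 in control, 6.42, 6.47 and 5.78 at day 2, 4.44, 4.35 and 5.84 at day 6 and 4.07, 2.98 and 3.46 at day 12. It was above the control range in every library of days 2 and 6, and overlapped it at day 12; the ratio itself was not tested. An antisense gene, Gm45774, covers 73.5% of the exon bases of Mt2 and had 35 counts over all libraries beside 2015 for Mt2; no source used here gives the strand setting of the counting, so reads of the pair cannot be told apart.

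**Figure D4:**
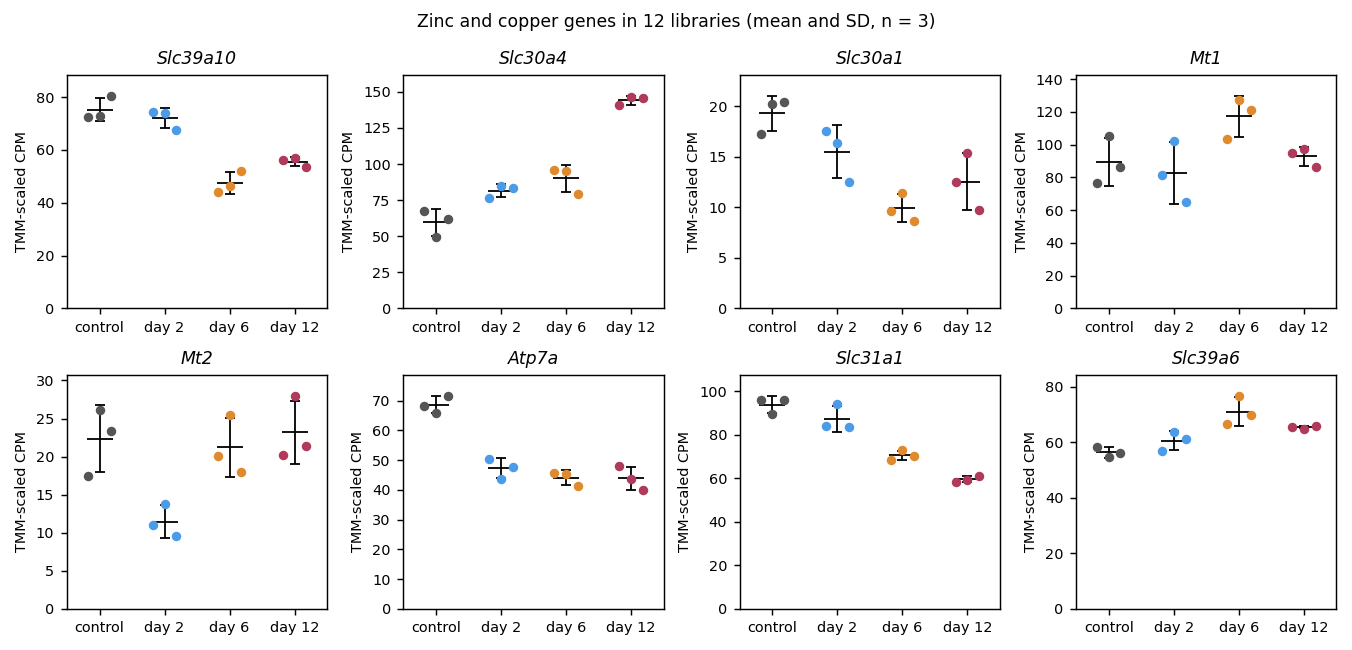
TMM-scaled CPM (y axes from 0) of 6 zinc genes and 2 copper genes in the 12 libraries by group; points are libraries A, B and C, and bars are the mean and SD. Slc39a10, Slc30a1 and Slc31a1 are lower at days 6 and 12, Slc30a4 is highest at day 12, and Mt2 is low at day 2 alone.

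**Figure D5:**
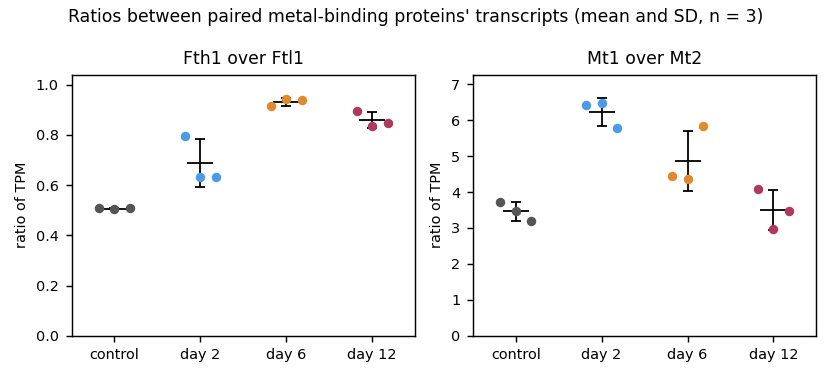
Ratio of TPM (y axes from 0) of Fth1 to Ftl1 and of Mt1 to Mt2 in the 12 libraries by group, with the mean and SD of 3 libraries. The ferritin ratio lies near 0.506 in all control libraries and above 0.63 in all treated ones, and the metallothionein ratio is highest at day 2.

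Of the 4 copper transport genes, Atp7a fell at all 3 times against control and Slc31a1 at days 6 and 12, which makes 1 of 4 at day 2 and 2 of 4 at the later times, beside 21.2%, 54.3% and 52.8% of all genes. The other two had no call. Atp7a, the copper ATPase of most tissues other than liver, was at 68.3, 65.9 and 71.5 CPM in control, 50.3, 43.7 and 47.7 at day 2, 45.7, 45.2 and 41.3 at day 6 and 47.8, 43.5 and 40.1 at day 12. It was lower than control at day 2, with no call between the treated days, and had log2 fold changes of -0.53 ± 0.08, -0.64 ± 0.08 and -0.65 ± 0.08 (edgeR adjusted p = 3.26e-06, 1.93e-08 and 1.08e-08). The day 2 call was lost on the TPM scale (-0.42, limma adjusted p = 0.115). Slc31a1 (CTR1), the high-affinity copper importer, was at 96.1, 89.4 and 96.2 CPM in control, 84.2, 94.002 and 83.3 at day 2, 68.3, 72.8 and 70.3 at day 6 and 58.3, 59.4 and 60.9 at day 12. Day 2 overlapped control (-0.12 ± 0.07, no call), and the later groups fell, with log2 fold changes of -0.42 ± 0.07 and -0.66 ± 0.07 (edgeR adjusted p = 2.38e-06 and 2.94e-10). The steps from day 2 to day 6 (-0.30 ± 0.07) and from day 6 to day 12 (-0.24 ± 0.07) also passed (edgeR adjusted p = 5.81e-04 and 0.00997), the first of them not in TPM (limma adjusted p = 0.101). Slc31a2 (CTR2, of endosomes and lysosomes) had no call at any time, with log2 fold changes of 0.08, 0.17 and 0.06. Atp7b, the ATPase mutated in Wilson disease, had 16 to 47 counts per library and no call; its estimate of -0.56 ± 0.29 at day 12 (edgeR adjusted p = 0.103) missed the threshold at this depth.

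Around these members, 4 lists of partner genes were counted, beside 21.2%, 54.3% and 52.8% of all genes called at days 2, 6 and 12. The 9 tested zinc partners were the zinc sensor, zinc enzymes and other zinc-linked genes. Of these, 2 rose and 3 fell at day 2, and 2 rose and 5 fell at day 6. At day 12, 4 rose and 4 fell. Of 19 copper partners (chaperones, oxidases and reductases) it was 3 and 2, 4 and 8, and 3 and 7. Of 22 iron partners (uptake, sensing and regulation) it was 5 and 4, 6 and 7, and 7 and 4. Of 31 haem and iron-sulphur partners it was 1 and 3, 6 and 12, and 6 and 11. Their median log2 fold changes in that order were 0.04, -0.01, 0.02 and -0.08 at day 2, -0.21, -0.36, -0.04 and -0.09 at day 6, and 0.11, -0.31, 0.06 and -0.03 at day 12, with the median of all genes within 0.01 of 0.

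Of 7 regulators of zinc, iron and haem genes, all but Ireb2 had a call against control at one or more times. The share of all genes with such a call was not computed. It cannot be below the 54.3% called at day 6 alone, so the count is not read as a result about the regulators. In the test across the 4 groups, which 65.1% of all genes passed, Mtf1 and Ireb2 did not pass (edgeR adjusted p = 0.0987 and 0.0985). The other regulators passed it. Mtf1 had a single call, at day 12 (0.25 ± 0.10, edgeR adjusted p = 0.0316), from 31.2 ± 0.355 CPM in control (SD, n = 3) to 37.03 ± 1.42. Aco1, which encodes iron regulatory protein 1, was at 76.7, 73.9 and 76.2 CPM in control and 50.1, 49.8 and 44.4 at day 6, a change of -0.65 ± 0.07 (edgeR adjusted p = 2.07e-09), and was still lower at day 12 (-0.56 ± 0.07, edgeR adjusted p = 3.07e-08). Ireb2, which encodes iron regulatory protein 2, had no call, at 164 ± 2.51 CPM in control and 171 ± 6.15 at day 6. Fbxl5, the iron-sensing ubiquitin ligase subunit that marks iron regulatory protein 2 for degradation, rose by 0.35 ± 0.07, 0.55 ± 0.07 and 0.65 ± 0.07 at days 2, 6 and 12 (edgeR adjusted p = 1.902e-04, 1.14e-08 and 1.98e-10). Ncoa4, the receptor for ferritin autophagy, rose at day 12 alone against control (0.27 ± 0.06, edgeR adjusted p = 2.41e-04). Bach1, the haem-sensing repressor of Hmox1, Slc40a1 and the ferritin genes, fell at day 2 (-0.29 ± 0.08, edgeR adjusted p = 0.007003) and rose at days 6 and 12 (0.38 ± 0.07 and 0.39 ± 0.07, edgeR adjusted p = 6.46e-05 and 4.05e-05). Hmox1, which releases iron from haem, rose at day 12 (0.34 ± 0.09, edgeR adjusted p = 0.00261); at days 2 and 6 its log2 fold changes were -0.04 and 0.20 without a call.

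The partner with the largest increase was Cp, the copper-containing ferroxidase ceruloplasmin, which works with ferroportin to load exported iron onto transferrin and stands in both the copper and the iron list. It was at 538, 497 and 566 CPM in control, 918, 767 and 909.8 at day 2, 2107, 2287 and 2108 at day 6 and 2305, 2356 and 2335 at day 12. The increases were 0.70 ± 0.06, 2.02 ± 0.06 and 2.13 ± 0.06 on the log2 scale (edgeR adjusted p = 4.68e-11, 7.92e-24 and 1.59e-24). Cp and Slc40a1 both rose from control to day 6, but from day 6 to day 12 Cp changed by 0.11 ± 0.06 with no call while Slc40a1 fell. Of the copper partners, the metalloreductase gene Steap2 fell at days 6 and 12 (-0.69 ± 0.06 and -1.17 ± 0.06), the lysyl oxidase gene Loxl2 rose at day 2 (0.25 ± 0.07) and fell at days 6 and 12 (-0.91 ± 0.07 and -0.76 ± 0.07), and Slc25a3, the mitochondrial phosphate and copper carrier, fell at all 3 times (-0.22 ± 0.05, -0.50 ± 0.05 and -0.48 ± 0.05), all past an adjusted p of 0.05 in edgeR.

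Of the iron partners, Bmp6, the ligand that drives hepcidin in liver, fell at all 3 times (-0.17 ± 0.06, -0.90 ± 0.06 and -1.09 ± 0.06, the first at an edgeR adjusted p of 0.0461). Lrp1, an endocytic receptor for haem bound to haemopexin, rose at all times (0.38 ± 0.06, 1.33 ± 0.06 and 1.27 ± 0.06). Lrp2, the megalin receptor that recovers filtered metal-binding proteins and is also 1 of the proximal tubule markers, was at 283, 249 and 272 CPM in control, 119.8, 100.3 and 116 at day 2, 214, 229 and 246 at day 6 and 97.8, 92.6 and 97.4 at day 12, so it was low at days 2 and 12 and closer to control at day 6; all 3 decreases passed in edgeR (adjusted p = 7.52e-17, 0.00272 and 6.89e-20). Tmprss6, which encodes the hepcidin regulator matriptase-2 and was picked out after its values were seen, had 77, 94 and 115 counts in control, 35, 18 and 52 at day 2, 10, 18 and 10 at day 6 and 4, 7 and 6 at day 12, with a log2 fold change of -4.14 ± 0.29 at day 12 (edgeR adjusted p = 1.302e-14). Of the haem and iron-sulphur partners, Alad, a zinc enzyme of haem synthesis, fell at all times (-0.41 ± 0.09, -0.66 ± 0.08 and -0.92 ± 0.09), as did the haem transporter gene Slc48a1 (-0.27 ± 0.07, -0.48 ± 0.07 and -0.63 ± 0.07). Of the zinc enzymes, the carbonic anhydrase genes Car2 and Car12 were lowest at day 12 (-2.83 ± 0.09 and -2.52 ± 0.11) and Ace at day 6 (-3.32 ± 0.21), each past an adjusted p of 0.05 at every time. Alpl, alkaline phosphatase, rose at day 12 (0.55 ± 0.08), and its small decrease at day 6 (-0.21 ± 0.08, edgeR adjusted p = 0.0218) was 0.0152 in the other direction in TPM.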

How the data were processed

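PolyA RNA of PT-22 was sequenced in 12 libraries. Per the submitters' processing notes, cutadapt 2.3, FastQC 0.11.8, STAR 2.7.8a, RSEM 1.3.3 and GRCm38 were used; annotation release and strand use are not given in the sources used here. The authors deposited RSEM expected counts as whole numbers, and TPM. Groups and letters came from the labels. The members and lists were chosen with earlier results of these data known.

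One edgeR 4.0.16 quasi-likelihood fit (R 4.3.3; robust, TMM, filterByExpr) covered all 12 libraries and 13513 genes, with 2-sided Benjamini-Hochberg adjusted p-values and a threshold of 0.05 over all of them. Simulated counts were used to test the script. Alternatives were other scalings, DESeq2 1.42.0, other filters, limma 3.58.1 on deposited TPM, a replicate block, 2-group fits and leaving out each library. Replicates differed beyond counting noise (chi-square per degree of freedom 2.12 to 7.56). All members could be named, with 7 regulators, Pax8 and up to 4 genes per partner list with the smallest p across the 4 groups. One gene named by this rule is not reported here. Genome positions came from GENCODE M21, promoters from RefSeq GRCm38.p6.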

Additional observations from a re-analysis of the deposited data

Results flagged for a closer look

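Tfrc was called higher than control at day 2 (0.22 ± 0.07 on the log2 scale, edgeR adjusted p = 0.0169) and lower than control at day 6 (-0.20 ± 0.07, edgeR adjusted p = 0.0162), opposite directions for 2 times set against the same 3 control libraries. The difference itself, day 6 against day 2, was -0.42 ± 0.07 (edgeR adjusted p = 1.02e-05), and every day 6 library lay below every day 2 library. On the TPM scale the 2 differences from control were 0.25 and -0.08 and neither passed (limma adjusted p = 0.136 and 0.551), while the day 6 against day 2 difference was -0.33 (limma adjusted p = 0.0212).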

How the results depend on the processing

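The 60 calls of members over 5 comparisons were recomputed under 22 alternatives each, and 30 held in all of them. Of the 135 member values per setting, DESeq2 ended 8 calls and the 3 limma settings ended 24, 24 and 29; other scalings ended 1 or 2. Only limma on TPM reversed a member: with log2(TPM + 1), log2(TPM + 0.1) and log2(TPM + 1) without a filter, Slc39a14 from day 2 to day 6 was 0.39, 0.40 and 0.39, Slc30a9 at day 12 was 0.0515, 0.0525 and 0.0515, Slc39a9 at day 12 was 0.067, 0.0692 and 0.067, and the partner Alpl at day 6 was 0.0152, 0.0154 and 0.0152; the cause was not tested. The same 3 settings tested 29, 29 and 33 members. The members called were 6, 6 and 5 at day 2 and 10, 10 and 9 at day 12. All genes called at day 2 were 1567, 1547 and 1380, beside 2860 in the main fit. Without a filter, limma called 7 members between days 2 and 6 and 2 between days 6 and 12, where DESeq2 called 3 of 28 tested. Leaving out one library at a time gave 3 to 6 calls for that last comparison. It gave 9 to 10 members at day 2, 12 to 17 at day 6, 13 to 18 at day 12 and 9 to 12 between days 2 and 6.

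No pairing by replicate letter was seen: deviations of same-lettered libraries correlated at -0.149 to 0.111 over 18 pairs, and those of different letters at -0.109 to 0.108 over 36. With 3 libraries per group, such correlations cannot settle whether libraries of a letter shared a culture or batch. With a replicate block, 11, 16 and 17 members were called at days 2, 6 and 12, 12 between days 2 and 6, 6 between days 6 and 12, and 19 across the 4 groups, where 18 were called without it; Ftl1 at day 2 passed with it (adjusted p = 0.00929).

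Depth limits Atp7b and Slc39a8, with at most 47 and 36 counts in a library, and the 8 untested members. Slc39a13 and Slc39a9 share exon bases with Psmc3 and Erh on the other strand, which have more counts (16244 and 12478, beside 2321 and 7464), and Slc39a7 shares 80.7% of its exon bases with Gm20427.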
